A study of Mus musculus with 15 samples.

Results

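The data described here compare MC38 tumours of mice given BG136 plus anti-PD-1 antibody with MC38 tumours of mice given anti-PD-1 antibody alone. MC38 is a mouse colon adenocarcinoma line that is grown as a tumour in mice with an intact immune system, and the labels give its genotype as wild type. BG136 is a soluble β-1,3/1,6-glucan, a glucose polymer, and the submitters' texts name different source organisms for it, so none is given here. Every injection was intravenous. The comparison takes in 10 of the 15 libraries of the series, with 5 tumour samples in each of the 2 groups, and the other 5 libraries came from mice given vehicle. The vehicle tumours are shown as a reference level and entered the tests only in an alternative fit over all 15 libraries, where they added to the estimate of the spread. Doses, times, mouse strain and age are not given in the sources used here, and no group given BG136 alone was analysed here, so an effect of BG136 without the antibody cannot be told apart from an effect of the pair. Each library was made from the polyadenylated RNA of a tumour block with a strand-specific kit. A tumour block holds malignant cells, stroma and infiltrating leukocytes together. Fewer cells of a type and less RNA per cell cannot be told apart in it. Levels are FPKM, fragments scaled to the length of the transcript and to the mapped fragments of the library. A gene was tested when it reached at least 1 FPKM in at least 5 of the 10 compared libraries, which left 11186 of 21851 genes. Changes are log2 differences of (FPKM + 1), combination minus anti-PD-1, which understates the change of genes of low level.

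PD-1, encoded by Pdcd1, is an inhibitory receptor on activated T cells, and antibodies against it release T cells from the signals of its ligands PD-L1 (Cd274) and PD-L2 (Pdcd1lg2). β-glucans of fungi, plants and seaweeds are bound on macrophages, monocytes, dendritic cells and neutrophils by dectin-1 (Clec7a), which signals through the kinase Syk and the adaptor Card9, and, after opsonisation with complement, by the integrin CR3 (Itgam with Itgb2). MC38 tumours are widely used for PD-1 blockade because they carry many mutations and attract T cells and macrophages.

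Across all tested genes, no difference between the 5 combination and the 5 anti-PD-1 tumours passed an adjusted limma p of 0.05 (0% of 11186 genes). The smallest adjusted p was 0.195, shared by several genes, and the smallest unadjusted p was 9.13e-05, for Alg2. At an unadjusted p under 0.05, 713 genes were higher with the combination (6.37% of the genes tested) and 1533 were lower (13.7%). The values of the 2 groups did not overlap for 75 genes that were higher (0.670%) and 431 that were lower (3.85%). A fit over all 15 libraries, in which the 3 groups share their spread, called 7 genes, all lower (0.0626%). The median change over all tested genes was -0.05, and 37.0% of genes had a change above 0. The split between directions depended on the scaling: with median-ratio scaling of the FPKM 1066 genes were higher and 763 lower, so that the higher share of these genes was 58.3% in place of 31.7%, and with quantile normalization the share was 42.0%. Because no gene passed the adjusted test, the values below describe these tumours, and "higher" and "lower" state the order of the measured means.

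The combination tumours differed more among themselves than the anti-PD-1 tumours did. The median SD of a gene on the log2 scale was 0.0956 among anti-PD-1 libraries and 0.164 among combination libraries, and 80.0% of genes had the larger SD in the combination group. Combination replicates 5 and 3 stood apart on the first principal component (53.4% of the variance), at 42.5 and 22.4, where the other 8 libraries lay between -19.1 and 4.22. Combination replicate 4 stood apart on the second component (14.7%), with the highest FPKM sum of the 10 libraries (424899 against 384405 to 393570 in the others) and almost no skeletal muscle RNA. Without combination replicates 3 and 5 the median SD of that group was 0.119, and 276 genes (2.47%) were higher and 827 (7.39%) lower at an unadjusted p under 0.05. Leaving out a single library moved the 713 higher genes to 362 without combination replicate 3, to 429 without combination replicate 5, to 404 without anti-PD-1 replicate 3, to 472 without anti-PD-1 replicate 4 and to 1395 without combination replicate 2. Counts for most gene groups are therefore given with all 5 combination tumours and without replicates 3 and 5. The deposited values hold no read counts and therefore no depth. The spacing of low values put the depths of the other 9 libraries at 1.10 to 1.27 times that of anti-PD-1 replicate 1, with poor spacing in combination replicates 3 and 4.

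The enzymes of cholesterol and fatty acid synthesis were the gene group with the largest share of lower members among the lists examined. This pathway builds cholesterol from acetyl-CoA through mevalonate, squalene and lanosterol, and its genes are switched on by the transcription factors SREBP-2 (Srebf2) and SREBP-1 (Srebf1) when cell sterols are low. All 22 listed genes were measured and lay below 0, with a median change of -0.58 against -0.05 over all tested genes. 19 of the 22 were lower at an unadjusted p under 0.05, where 13.7% of all tested genes were, and 6 had groups that did not overlap, against 3.85% of all genes. The mean of log2(FPKM + 1) over the 22 genes was 5.004, 4.83, 4.84, 4.67 and 4.57 in anti-PD-1 replicates 1 to 5 and 4.57, 4.59, 3.80, 4.38 and 3.56 in combination replicates 1 to 5. Combination replicates 5 and 3 had the lowest means and replicates 1 and 2 lay next to the lowest anti-PD-1 tumours. The vehicle tumours spanned 4.60 to 5.22.

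Dhcr7, which reduces 7-dehydrocholesterol in a last step of cholesterol synthesis, had the smallest p of the group. Its values were 19.6, 16.1, 18.6, 15.9 and 17.5 FPKM with anti-PD-1 and 14.3, 14.3, 9.38, 10.6 and 9.52 FPKM with the combination, without overlap between the groups (-0.57 ± 0.12 (SE), with an adjusted p of 0.195 by limma).

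Among the mevalonate enzymes, Hmgcs1 averaged 34.7 ± 6.86 FPKM (SD, n = 5) with anti-PD-1 and 21.3 ± 8.35 with the combination. Its groups overlapped and the log2 change was -0.75 ± 0.26 (SE). Fdps, which makes farnesyl diphosphate, had the most negative value of the list at -1.01 ± 0.39, with single tumours from 18.5 to 92.1 FPKM in the combination group and 78.2 to 141 FPKM with anti-PD-1. On the squalene and lanosterol steps the changes were -0.59 for Fdft1, -0.76 for Sqle, -0.65 for Lss and -0.92 for Cyp51. The regulators were lower as well, with changes of -0.49 ± 0.18 for Srebf2, -0.36 ± 0.09 for Srebf1, whose groups did not overlap, and -0.55 ± 0.26 for the sterol sensor partner Insig1, whose adjusted p was 0.255.

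The genes of the fatty acid branch differed among themselves in size and spread. Fasn, fatty acid synthase, measured 80.9, 71.3, 63.2, 65.5 and 61.4 FPKM with anti-PD-1 and 61.3, 57.3, 48.2, 47.4 and 44.3 FPKM with the combination. The lowest anti-PD-1 tumour and the highest combination tumour were nearly level but did not overlap, and the log2 change was -0.40 ± 0.10 (SE), with an adjusted p of 0.212 by limma. Acaca, acetyl-CoA carboxylase, did not overlap either (-0.35 ± 0.089), while Acly, which makes cytosolic acetyl-CoA, did (-0.39 ± 0.11). The fatty acid desaturase Scd2 had a change of -0.86 ± 0.31 and its paralog Scd1 one of -0.029 ± 0.35, the value nearest 0 in the list, with Scd1 from 47.7 to 132 FPKM in the combination tumours. Scd1 is strongly expressed in fat, and the adipocyte marker Adipoq ranged from 1.75 to 23.1 FPKM in the same tumours. The part of fat in these Scd1 values is not given here.

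Without combination replicates 3 and 5 the median change of the list was -0.30 and 12 of 22 genes were lower at an unadjusted p under 0.05, against 7.39% of all tested genes in that fit. Dhcr7 then had a change of -0.41. The 2 tumours with the lowest sterol synthesis values also had the highest T cell, macrophage and MHC class II values of the 10, and the part of these leukocyte markers in the lower sterol values was not tested.

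**Figure D1:**
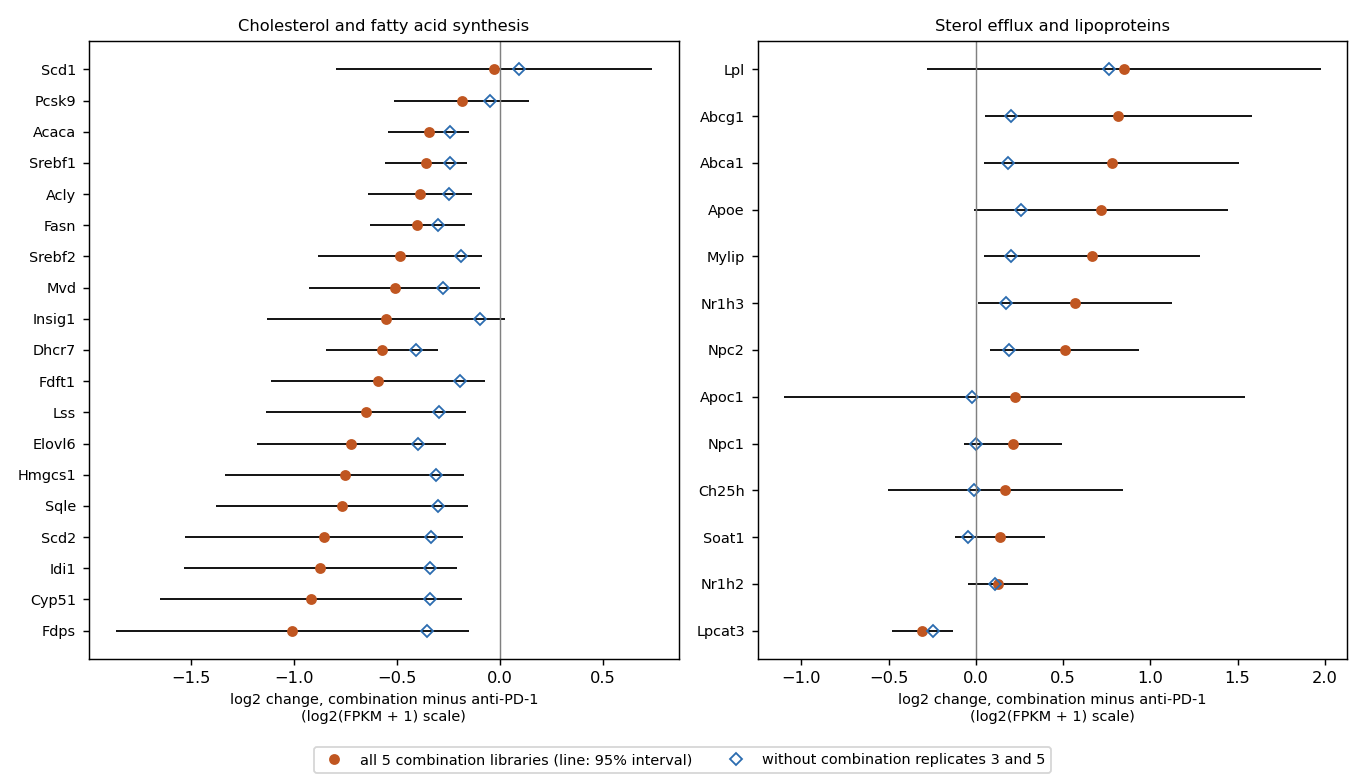
Log2 changes of (FPKM + 1), combination minus anti-PD-1, for 19 of the 22 genes of cholesterol and fatty acid synthesis (left) and of sterol efflux and lipoproteins (right); filled points are the fit over all 10 libraries with 95% intervals, open diamonds leave out combination replicates 3 and 5. All plotted synthesis genes lie below 0 with all libraries, and most diamonds lie nearer to 0.

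The promoters of these genes were examined because their members were lower together. RefSeq promoter sequences of mouse build GRCm38.p6, 250 bases before to 50 after the annotated start, were available for 13 of the 22 genes, and the build differs from the one in the submitters' processing notes. The letters TCACNCCAC, a form of the sterol regulatory element bound by SREBP, and CCAAT, the letters read by the SREBP partner NF-Y, were searched on both strands. CCAAT was in a promoter of 11 of the 13 genes (84.6%), and in a promoter of 41.1% of the 27025 genes of the RefSeq table (37.4% of its 32851 promoters). TCACNCCAC was in 1 of the 13, Hmgcs1, and in 1.44% of all genes (1.24% of promoters). These matches describe letters and no binding was measured. The 250 bases upstream of the start of 3 of the genes are shown 5′ to 3′ on the strand of the gene, Hmgcs1 as the gene with both motifs, Idi1 (isopentenyl diphosphate isomerase) as a second mevalonate enzyme and Fasn for the fatty acid branch. Capitals mark the motifs, with ATTGG being CCAAT on the other strand. The Hmgcs1 window (chr13:119690101-119690350, plus strand) holds TCACCCCAC starting at -137 from the start and CCAAT matches starting at -237, -176 and -45, without overlap between the motifs. The Idi1 window (chr13:8885356-8885605, plus strand) holds CCAAT matches starting at -45 and -14, and the Fasn window (chr11:120824548-120824797, minus strand) holds matches starting at -90, -62 and -59, of which the last 2 overlap on opposite strands.
Hmgcs1: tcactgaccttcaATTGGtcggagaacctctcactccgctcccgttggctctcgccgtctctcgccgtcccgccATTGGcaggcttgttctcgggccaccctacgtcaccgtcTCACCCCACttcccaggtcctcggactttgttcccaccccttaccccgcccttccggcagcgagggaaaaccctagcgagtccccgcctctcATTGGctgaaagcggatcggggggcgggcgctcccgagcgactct
Idi1: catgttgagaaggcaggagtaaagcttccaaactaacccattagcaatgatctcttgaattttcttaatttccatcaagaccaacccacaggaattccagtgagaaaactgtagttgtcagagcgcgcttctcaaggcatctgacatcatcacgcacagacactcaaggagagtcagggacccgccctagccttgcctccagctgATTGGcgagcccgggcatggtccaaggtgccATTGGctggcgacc
Fasn: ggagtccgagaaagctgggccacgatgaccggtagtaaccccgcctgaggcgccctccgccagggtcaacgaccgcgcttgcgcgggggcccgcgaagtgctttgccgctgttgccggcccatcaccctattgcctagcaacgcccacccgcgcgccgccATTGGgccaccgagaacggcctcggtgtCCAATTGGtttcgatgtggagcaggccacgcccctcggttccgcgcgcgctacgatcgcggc
The log2 changes of these 3 genes were -0.75, -0.87 and -0.40.

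Genes of sterol efflux were higher in the tumours in which the synthesis genes were lowest. Abca1, which exports cholesterol to apolipoproteins, measured 14.7, 13.8, 10.7, 10.8 and 13.6 FPKM with anti-PD-1 and 15.6, 12.4, 37.2, 15.8 and 47.98 FPKM with the combination. Combination replicates 3 and 5 were far above every anti-PD-1 tumour and the other 3 lay within or just above their range (0.78 ± 0.33 (SE), with an adjusted p of 0.239 by limma). Abcg1, the exporter to HDL, was also highest in replicates 5 and 3, with a change of 0.82 ± 0.35, and Mylip, a ubiquitin ligase, had one of 0.67 ± 0.28. Nr1h3, which encodes the macrophage form of the oxysterol receptors LXR, had a change of 0.57 ± 0.25. Of 13 tested efflux and lipoprotein genes, 5 were higher and 1, Lpcat3, was lower at an unadjusted p under 0.05, with a median of 0.51. Among all tested genes 6.37% were higher and 13.7% lower. Without replicates 3 and 5 none was higher, Lpcat3 was still lower, the median was 0.18 and Abca1 had a change of 0.19. In that fit 2.47% of all genes were higher and 7.39% lower.

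Genes of T cells were higher in the combination tumours. Of 14 tested T cell genes all lay above 0, with a median change of 0.70, and 11 were higher at an unadjusted p under 0.05, where 6.37% of all genes were. The list mean was 2.33, 2.34, 1.98, 2.42 and 2.36 in the anti-PD-1 tumours and 2.67, 2.36, 3.13, 2.73 and 3.95 in the combination tumours on the log2(FPKM + 1) scale. Combination replicate 5 was highest, and replicate 2 lay among the anti-PD-1 tumours. Cd8a, a chain of the coreceptor of cytotoxic T cells, measured 9.15, 9.96, 7.44, 9.68 and 10.3 FPKM with anti-PD-1 and 14.2, 10.2, 16.3, 10.9 and 31.99 FPKM with the combination. Combination replicate 2 lay just under the highest anti-PD-1 tumour, replicate 5 was far above all others, and the log2 change was 0.67 ± 0.25 (SE), with an adjusted p of 0.217 by limma.

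The T cell receptor complex gene Cd3g had a change of 0.86 ± 0.27, Cd8b1 one of 0.87 ± 0.29 and Cd3e one of 0.68 ± 0.31. Cd28, the costimulatory receptor, and Zap70, the kinase that relays the receptor signal, did not overlap between groups, with changes of 0.62 ± 0.19 and 0.57 ± 0.20. The helper T cell coreceptor gene Cd4, which some mouse dendritic cells also express, had an adjusted p of 0.437 and a change of 0.41 ± 0.32. Icos, a costimulator of activated T cells, measured 1.796, 1.13, 0.759, 1.62 and 1.18 FPKM with anti-PD-1 and 2.09, 1.84, 5.21, 2.29 and 6.95 FPKM with the combination, without overlap (0.91 ± 0.28). Without combination replicates 3 and 5, 8 of the 14 T cell genes were higher at an unadjusted p under 0.05, against 2.47% of all genes in that fit, with a median of 0.32. The regulatory T cell factor Foxp3 was under the filter, at 0.279 to 0.7498 FPKM with anti-PD-1 and 0.388 to 1.47 FPKM with the combination.

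Il7r and Klrd1 had the smallest p values among the lymphocyte genes listed. Il7r, the receptor chain for the survival cytokine IL-7, measured 3.12, 2.15, 1.96, 2.66 and 1.95 FPKM with anti-PD-1 and 4.44, 4.39, 12.03, 4.88 and 8.75 FPKM with the combination. Every combination tumour lay above every anti-PD-1 tumour, a 2.21-fold ratio on the (FPKM + 1) scale and a log2 change of 1.14 ± 0.24 (SE), with an adjusted p of 0.195 by limma. Klrd1 encodes CD94, the partner of the NKG2 receptors on NK cells and cytotoxic T cells. It measured 5.85, 6.098, 5.63, 7.400 and 7.15 FPKM with anti-PD-1 and 13.4, 9.62, 16.3, 12.97 and 27.6 FPKM with the combination, also without overlap (1.12 ± 0.22 (SE), with an adjusted p of 0.195 by limma). The vehicle tumours spanned 4.59 to 8.15 FPKM, a range that takes in all anti-PD-1 values, and without combination replicates 3 and 5 the change of Klrd1 was 0.80. Klrc1, which encodes the CD94 partner NKG2A, had a change of 0.97 ± 0.27, and Klrb1b, an inhibitory receptor of NK cells, one of 0.80 ± 0.18.

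Of the NK cell list 5 of 11 genes passed the filter and 4 were higher at an unadjusted p under 0.05, against 6.37% of all genes. With combination replicates 3 and 5 left out the number was 2, against 2.47%. The exception was the chemokine Xcl1, at -0.45 ± 0.28, with combination replicate 2 at 1.54 FPKM. The NK cell marker Ncr1 was under the filter, at 0.386 to 0.878 FPKM with anti-PD-1 and 0.3401 to 1.56 FPKM with the combination. Klrd1 and Klrc1 are carried by NK cells and by activated CD8 T cells, and which cells carried them here was not tested.

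The genes of killing were also higher, with more spread. All 16 tested cytotoxic genes lay above 0 with a median of 0.78. At an unadjusted p under 0.05, 10 were higher, against 6.37% of all genes. Without combination replicates 3 and 5 the number was 3, against 2.47% of all genes, and the median was 0.35. Nkg7, a protein of cytotoxic granules, measured 30.5, 35.3, 26.5, 35.9 and 43.7 FPKM with anti-PD-1 and 51.5, 36.3, 70.3, 68.1 and 129 FPKM with the combination. Replicate 2 of the combination lay among the anti-PD-1 tumours and the other 4 above them (0.92 ± 0.28 (SE), with an adjusted p of 0.212 by limma). Prf1, perforin, had a change of 0.74 ± 0.28 and Gzmk, a granzyme of memory-type CD8 T cells, one of 1.06 ± 0.40. Gzmb, the main apoptosis-inducing granzyme, measured 12.2, 18.7, 48.2, 52.8 and 48.9 FPKM with anti-PD-1 and 51.9, 27.7, 96.5, 40.2 and 99.9 FPKM with the combination. Anti-PD-1 replicates 1 and 2 lay under every combination tumour, anti-PD-1 replicates 3 to 5 lay among combination replicates 1, 2 and 4, and the change of 0.83 ± 0.47 had an adjusted p of 0.311. Ifng, interferon gamma, had a change of 0.58 ± 0.32 with an adjusted p of 0.305. The largest values in the list, 1.52 for Gzmd, 1.52 for Gzme and 1.47 for Gzmf, belong to near-identical neighbouring granzyme genes whose reads can be split between copies, so each value is uncertain.

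Checkpoint receptors and their ligands were higher as a group as well. Pdcd1, the target of the antibody, measured 5.57, 6.88, 4.898, 6.81 and 7.97 FPKM with anti-PD-1 and 11.2, 8.42, 16.3, 8.99 and 22.99 FPKM with the combination. The groups did not overlap, the vehicle tumours spanned 2.25 to 4.39 FPKM, and the log2 change was 0.90 ± 0.24 (SE), with an adjusted p of 0.212 by limma. Of 12 tested checkpoint genes all were at or above 0, with a median of 0.54. At an unadjusted p under 0.05, 9 were higher, against 6.37% of all genes. The inhibitory receptors Ctla4, Lag3, Tigit and Havcr2 had changes of 0.78 ± 0.24, 0.70 ± 0.29, 0.68 ± 0.22 and 0.53 ± 0.20. The PD-1 ligand gene Cd274 measured 30.4, 31.8, 31.6, 53.1 and 53.8 FPKM with anti-PD-1 and 53.2, 40.3, 79.1, 64.8 and 57.1 FPKM with the combination. Anti-PD-1 replicates 4 and 5 were level with combination replicate 1 and above replicate 2, and the change was 0.56 ± 0.21 (SE), with an adjusted p of 0.22 by limma. Pdcd1lg2 had a change of 0.49 ± 0.16. Tox, a factor that drives the exhausted state, had a change of 0.13 ± 0.17 (limma adjusted p = 0.64). Without combination replicates 3 and 5, 2 of the 12 were higher, against 2.47% of all genes, and the median was 0.21.

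**Figure D2:**
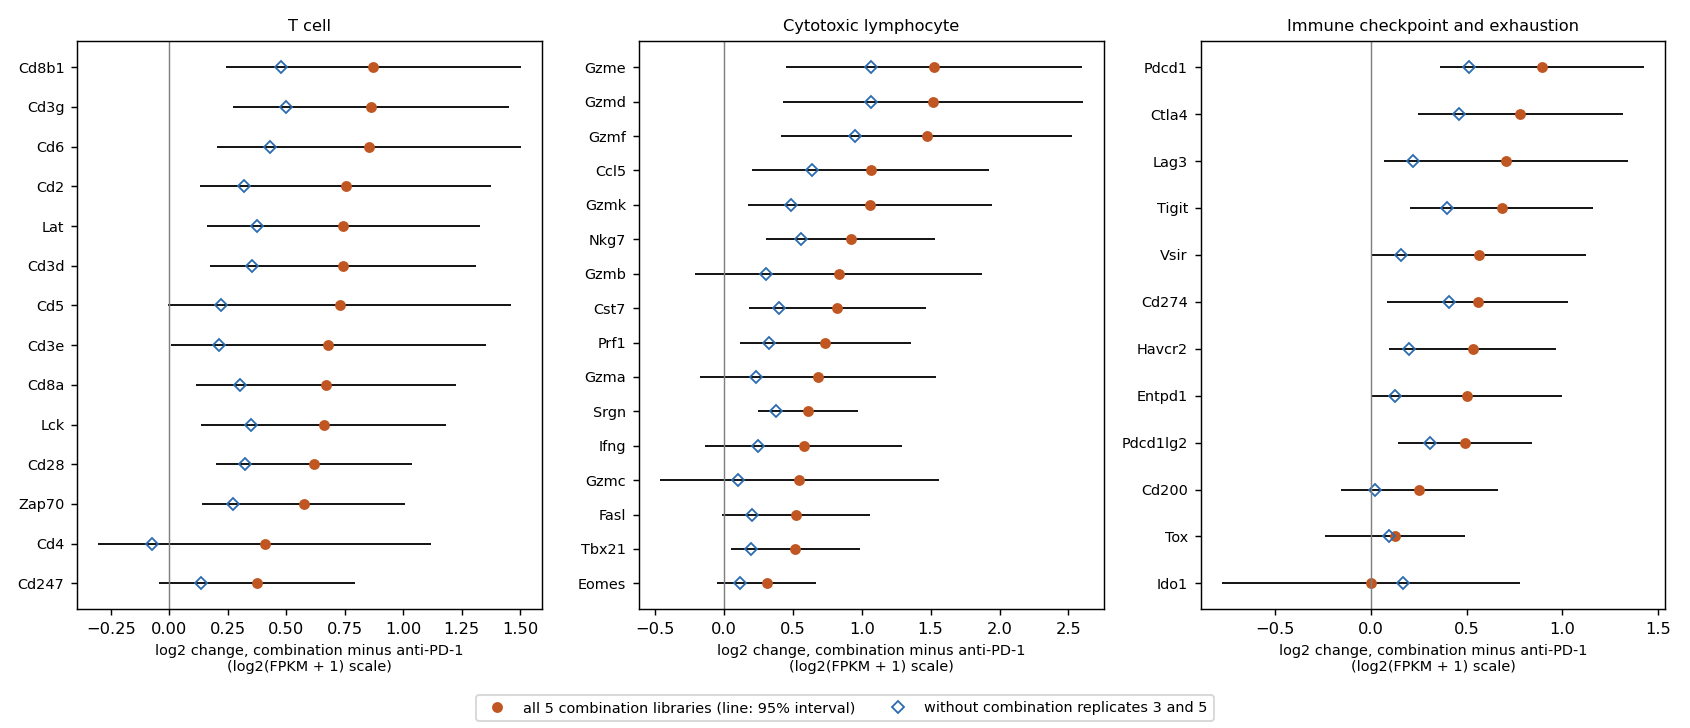
Log2 changes of (FPKM + 1), combination minus anti-PD-1, for T cell, cytotoxic lymphocyte and checkpoint genes; filled points with 95% intervals use all 10 libraries and open diamonds leave out combination replicates 3 and 5. Nearly all points lie above 0 and the diamonds lie closer to 0, with Cd4 just below it.

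**Figure D3:**
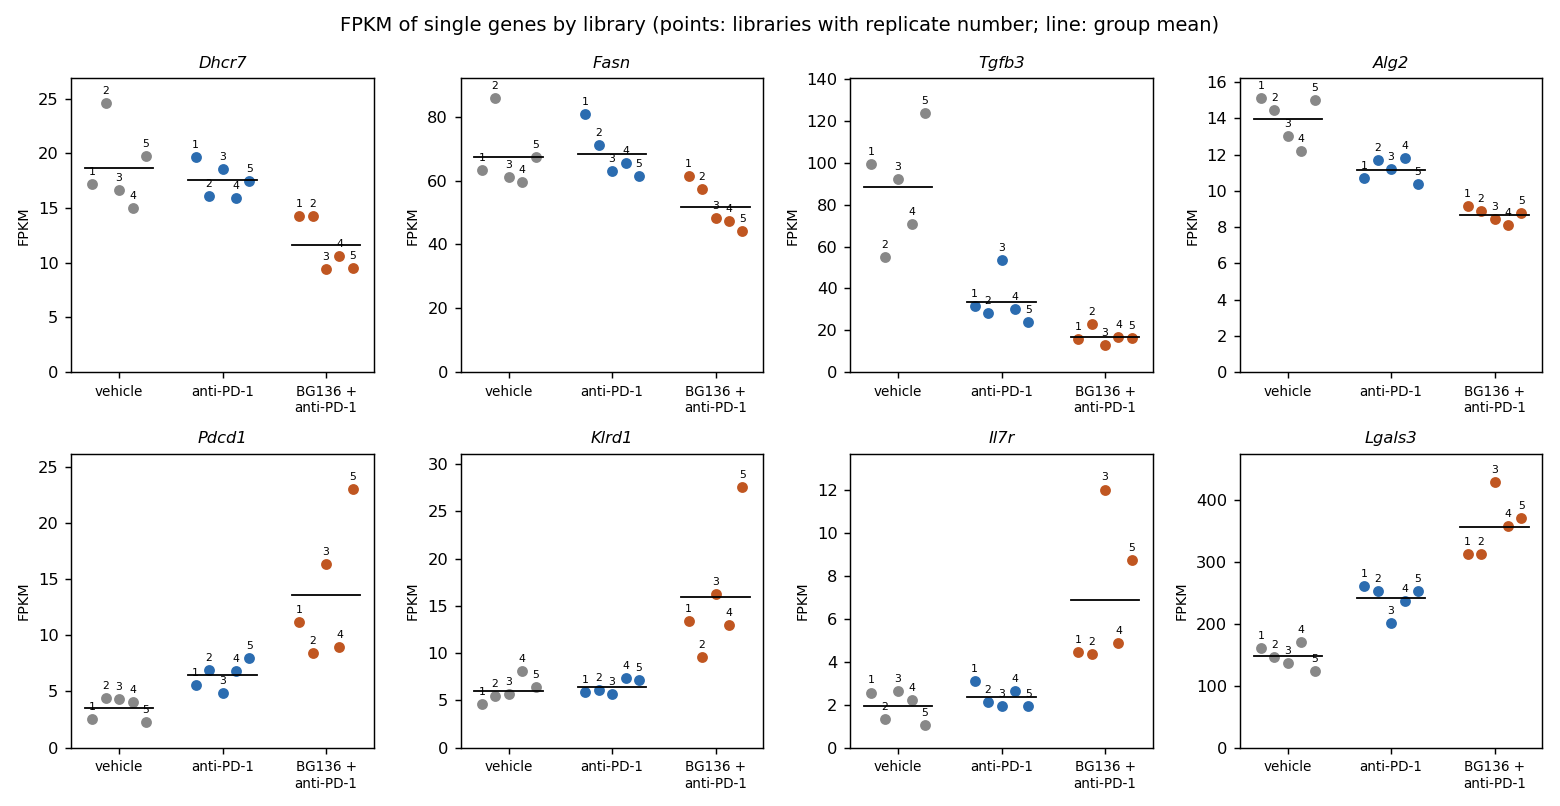
FPKM of 8 genes in every library, with group means as lines and replicate numbers beside the points; vehicle is shown as a reference level. Dhcr7, Fasn, Tgfb3 and Alg2 do not overlap between anti-PD-1 (middle) and combination (right) and are lower with the combination, while Pdcd1, Klrd1, Il7r and Lgals3 are higher without overlap.

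Macrophage and monocyte genes were higher as a group, mainly through combination replicates 3 and 5. All 17 tested genes lay above 0, with a median of 0.52. At an unadjusted p under 0.05, 11 were higher, against 6.37% of all genes. The list mean was 6.15, 6.33, 6.10, 6.12 and 6.26 in the anti-PD-1 tumours and 6.46, 6.06, 7.16, 6.42 and 7.41 in the combination tumours. Replicate 2 had the lowest mean of all 10 and replicates 3 and 5 the highest. Adgre1, the macrophage marker F4/80, measured 54.8, 68.7, 63.7, 46.6 and 60.6 FPKM with anti-PD-1 and 74.5, 51.7, 119.96, 64.9 and 154 FPKM with the combination. The groups overlapped (0.55 ± 0.26, limma adjusted p = 0.261), and without replicates 3 and 5 the change was 0.11. Lyz2, lysozyme of macrophages and neutrophils, had a change of 0.86 ± 0.26 and Cd68, a lysosomal macrophage protein, one of 0.60 ± 0.23.

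The members of the list with the smallest changes included 2 chemokine receptors. Ccr2, the receptor for Ccl2, had a change of 0.12 ± 0.25 (limma adjusted p = 0.779), which was -0.28 without combination replicates 3 and 5, and Cx3cr1, the fractalkine receptor of patrolling monocytes and macrophages, had one of 0.021 ± 0.25 (limma adjusted p = 0.964). Without replicates 3 and 5, 3 of the 17 macrophage genes, Fcgr3, Cd68 and Lyz2, were higher at an unadjusted p under 0.05, against 2.47% of all genes, and the median was 0.17.

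The receptors through which β-glucans act belong to the same cells. Clec7a, dectin-1, measured 19.5, 18.7, 10.4, 13.4 and 10.2 FPKM with anti-PD-1 and 14.6, 19.7, 28.6, 20.2 and 40.9 FPKM with the combination. Combination replicates 3 and 5 were highest and the other 3 lay within or just above the anti-PD-1 range (0.70 ± 0.27 (SE), with an adjusted p of 0.219 by limma). The vehicle tumours spanned 7.32 to 23.7 FPKM. Clec4e (mincle) and Clec4d (dectin-3), which pair with each other and signal through the Fc receptor chain Fcer1g, had changes of 0.75 ± 0.20 and 1.21 ± 0.35. Clec4d measured 19.8, 13.3, 5.93, 12.7 and 14.01 FPKM with anti-PD-1 and 18.8, 18.5, 55.8, 26.8 and 45.1 FPKM with the combination, with anti-PD-1 replicate 1 level with combination replicates 1 and 2. Clec4n, dectin-2, had a change of 0.60 ± 0.28 with combination replicate 5 far above the rest.

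The complement receptor chains Itgam and Itgb2 had changes of 0.41 ± 0.18 and 0.55 ± 0.21, the kinase gene Syk one of 0.65 ± 0.29 and the adaptor gene Card9 one of 0.37 ± 0.18. Of the 16 tested genes of β-glucan receptors and Syk signalling all lay above 0, and the median was 0.53. At an unadjusted p under 0.05, 9 were higher, against 6.37% of all genes. Without combination replicates 3 and 5 the number was 2, namely Clec4d and Clec4e, against 2.47% of all genes, and the median 0.17. In the anti-PD-1 tumours this list had a median 0.36 above that of vehicle tumours on the log2 scale, a description that shares the anti-PD-1 libraries.

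Genes of other phagocyte functions were also higher in part, where 6.37% of all genes were higher at an unadjusted p under 0.05. Of 16 tested Toll-like receptor and adaptor genes, 6 were higher, among them the co-receptor Cd14 (0.77 ± 0.30) and Tlr4 (0.25 ± 0.091). Of the same list 1 gene, Tlr3, was lower (-0.15), where 13.7% of all genes were lower. Of 7 tested Fc receptor genes 4 were higher, with Fcgr3 at 0.67 ± 0.21 and the inhibitory receptor Fcgr2b at 0.57 ± 0.21. Of 18 complement genes 6 were higher, among them C1qb at 0.51 ± 0.20, a chain of the first complement component that macrophages make. Of 17 phagocyte oxidase and lysosomal protease genes 7 were higher. Ctsl, cathepsin L, was the one whose groups did not overlap, at 149 to 165 FPKM with anti-PD-1 and 171 to 239.8 FPKM with the combination (0.30 ± 0.09). Without combination replicates 3 and 5 the numbers higher were 0, 1, 0 and 2 for these 4 lists, against 2.47% of all genes. In that fit 2 Toll-like receptor or adaptor genes were lower, against 7.39% of all genes.

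MHC class II genes, which present antigen to helper T cells, were likewise highest in combination replicates 3 and 5. H2-Ab1 measured 863, 989, 739.7, 568 and 790.5 FPKM with anti-PD-1 and 1086, 611, 1655, 1631 and 2169 FPKM with the combination. Replicate 2 was low and replicates 3, 4 and 5 were high among the combination tumours (0.75 ± 0.30 (SE), with an adjusted p of 0.224 by limma). All 12 tested class II genes lay above 0. With all libraries 7 were higher at an unadjusted p under 0.05 (6.37% of all genes). The number was 1 without combination replicate 5 (3.84% of all genes) and 0 without replicates 3 and 5 (2.47% of all genes). Ciita, the master activator of the class II genes, had a change of 0.61 ± 0.26 and Cd74, the invariant chain, one of 0.69 ± 0.32 with an adjusted p of 0.254. Class I genes present antigen to CD8 T cells. With all libraries none of 17 had an unadjusted p under 0.05. Among all genes 6.37% were higher and 13.7% lower. B2m had a change of 0.22 ± 0.11 and H2-K1 one of 0.16 ± 0.11. Without combination replicates 3 and 5, 3 of the 17 class I genes were lower, against 7.39% of all genes, and 0 were higher.

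Genes of arginine and adenosine metabolism were higher in part. Of 10 tested 6 lay above 0 and 5 were higher at an unadjusted p under 0.05, against 6.37% of all genes, and without combination replicates 3 and 5 the number was 1, against 2.47%. Of 10 tested genes of alternatively activated macrophages, 7 lay above 0, with a median of 0.21, and 1, Arg1, was higher, against 6.37% of all genes. Without combination replicates 3 and 5, 1 was higher and 1 lower, against 2.47% and 7.39% of all genes. Arg1, arginase of alternatively activated macrophages, measured 50.4, 50.6, 40.2, 79.96 and 50.4 FPKM with anti-PD-1 and 63.2, 89.1, 207, 100.2 and 75.7 FPKM with the combination, where replicate 3 was highest (0.87 ± 0.29 (SE), with an adjusted p of 0.212 by limma). Nos2, the inducible nitric oxide synthase of inflammatory macrophages, measured 9.67, 8.57, 7.87, 12.2 and 16.9 FPKM with anti-PD-1 and 14.5, 11.8, 39.7, 27.4 and 14.3 FPKM with the combination (0.81 ± 0.32 (SE), with an adjusted p of 0.222 by limma). Replicate 3 was highest for both, and replicate 5, the highest for macrophage markers, was not. Acod1, which makes itaconate in activated macrophages, had a change of 0.88 ± 0.34 and the inflammatory cytokine Tnf one of 0.50 ± 0.18. Lgals3, galectin-3, a lectin abundant in macrophages, measured 262, 254, 202, 236 and 253 FPKM with anti-PD-1 and 313, 313, 429, 358 and 372 FPKM with the combination. All 5 combination tumours were above all anti-PD-1 tumours, which in turn were above the vehicle range of 124 to 171 FPKM (0.56 ± 0.10 (SE), with an adjusted p of 0.195 by limma). Of 12 genes of lipid-associated macrophages 2 were higher at an unadjusted p under 0.05, Lgals3 and Trem2 (0.63 ± 0.22), against 6.37% of all genes. Without combination replicates 3 and 5 the number was 3, against 2.47% of all genes. The macrophage-expressed genes Hmox1 (haem oxygenase, 0.76 ± 0.21) and Pla2g7 (a secreted phospholipase, 1.04 ± 0.31) did not overlap between groups and were highest in combination replicates 3 and 5.

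**Figure D4:**
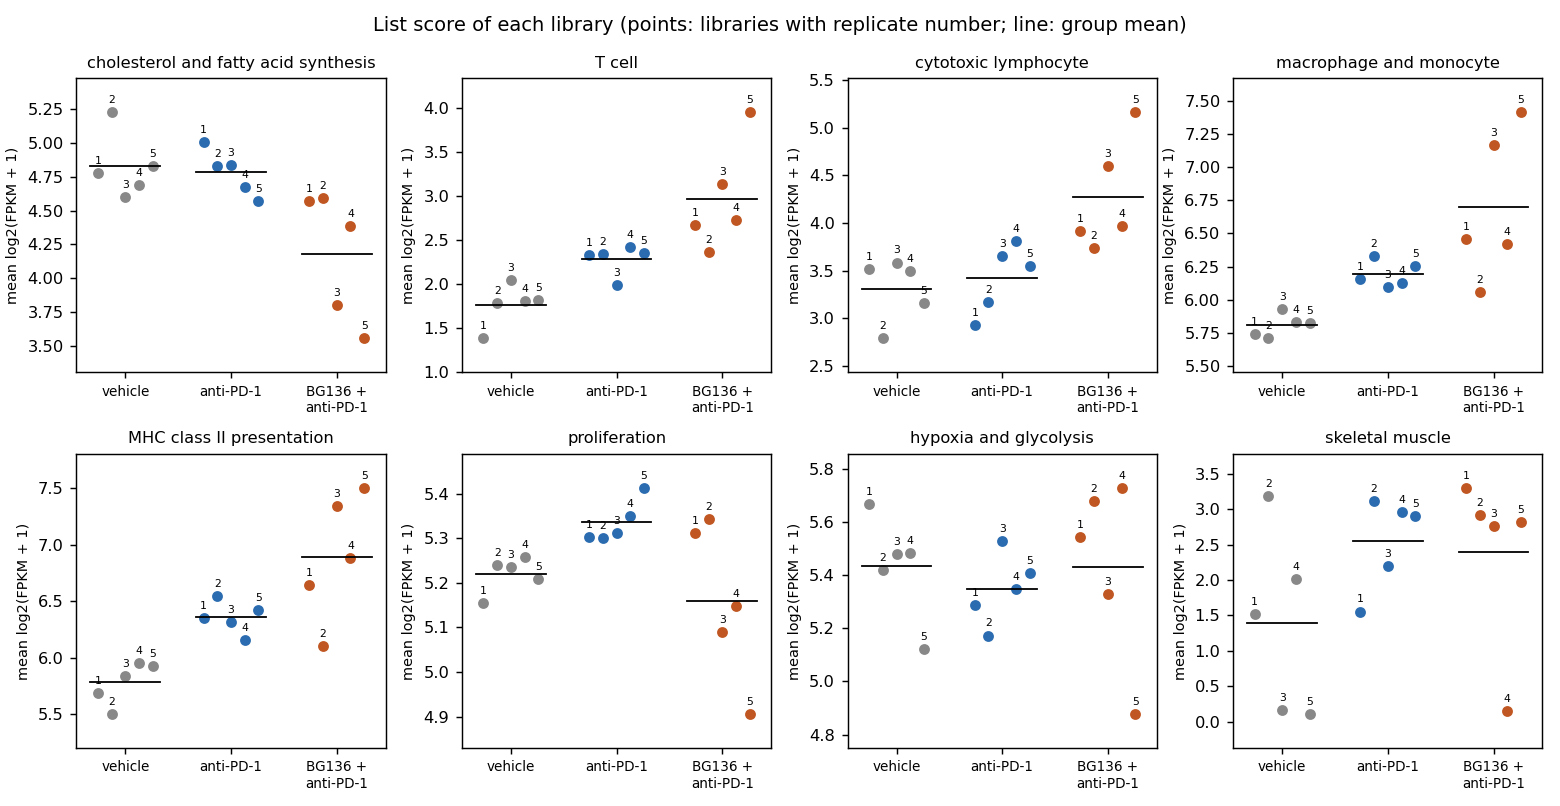
Mean log2(FPKM + 1) over the measured genes of 8 lists in every library, those under the filter included, with group means as lines and replicate numbers beside the points. Combination replicates 3 and 5 have the lowest sterol synthesis and the highest macrophage and MHC class II means, and combination replicate 4 has almost no skeletal muscle signal, at 0.15.

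Chemokines were not alike in direction. Ccl3 and Ccl4, made by macrophages and activated T cells, had changes of 0.79 ± 0.22 (SE, limma adjusted p = 0.212) and 0.73 ± 0.19. Ccl3 measured 14.5, 14.6, 13.9, 19.8 and 13.9 FPKM with anti-PD-1 and 30.1, 14.4, 29.8, 28.5 and 38.9 FPKM with the combination, where 4 tumours were above all anti-PD-1 tumours and replicate 2 was among them. Ccl5, made by cytotoxic lymphocytes, had a change of 1.06 ± 0.39, and Cxcl16, the ligand of CXCR6, one of 0.61 ± 0.21. The receptor Cxcr6 of tissue-resident T cells measured 8.02, 7.89, 5.605, 8.03 and 10.3 FPKM with anti-PD-1 and 13.1, 9.58, 18.9, 11.9 and 45.04 FPKM with the combination (1.005 ± 0.34), with replicate 2 inside the anti-PD-1 range and replicate 5 far above. Cxcr4, the receptor for Cxcl12, had a change of 0.94 ± 0.26 and Ccrl2, a non-signalling receptor of myeloid cells, one of 0.66 ± 0.19.

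Ccl2, the main monocyte attractant, was the chemokine with a negative change at an unadjusted p under 0.05. It measured 313, 344, 310.4, 389.8 and 379 FPKM with anti-PD-1 and 277, 217, 174, 345 and 212 FPKM with the combination. Combination replicate 4 lay among the anti-PD-1 tumours and the other 4 lay under them (-0.54 ± 0.16 (SE), with an adjusted p of 0.212 by limma), and without replicates 3 and 5 the change was -0.33. The interferon-induced T cell attractants Cxcl9 and Cxcl10 had changes of 0.20 ± 0.19 and -0.25 ± 0.19, neither with an unadjusted p under 0.05. Of 21 tested chemokine genes 18 had a change above 0, and 5 were higher and 1 lower at an unadjusted p under 0.05, against 6.37% and 13.7% of all genes. Without replicates 3 and 5 the numbers were 3 and 1, against 2.47% and 7.39%.

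Interferon response genes had lower median changes than the T cell genes. Of 26 genes induced by or sensing interferon gamma, 22 lay above 0, where 37.0% of all tested genes did, with a median of 0.11. At an unadjusted p under 0.05, 3 were higher (Ciita, Cd274 and Gbp8), against 6.37% of all genes. Without combination replicates 3 and 5 none was higher, against 2.47% of all genes, and the median was 0.096. Irf1, a first-wave target, had a change of 0.087 ± 0.12. Of 24 type I interferon response genes 4 were lower and none was higher, with a median of -0.16, where 13.7% of all genes were lower. Rsad2, viperin, measured 31.5, 25.01, 45.2, 39.4 and 31.5 FPKM with anti-PD-1 and 28.8, 23.7, 26.7, 24.6 and 24.2 FPKM with the combination. The groups overlapped, and the anti-PD-1 tumours were spread more widely (-0.39 ± 0.14 (SE), with an adjusted p of 0.212 by limma). Ddx58, the RNA sensor RIG-I, had a change of -0.33 ± 0.09, Ifit1 one of -0.38 ± 0.14 and Isg15 one of -0.30 ± 0.18 with a limma adjusted p of 0.328. The median of the list was -0.30 without combination replicates 3 and 5, farther from 0 than with all libraries.

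Immediate early genes were higher in part. Of 16 tested, 8 were higher at an unadjusted p under 0.05, against 6.37% of all genes. Without combination replicates 3 and 5 the number was 4, against 2.47% of all genes. Ier3, a stress-induced survival gene, measured 15.4, 14.96, 12.95, 15.1 and 14.6 FPKM with anti-PD-1 and 26.4, 16.3, 26.1, 21.6 and 21.1 FPKM with the combination, without overlap (0.56 ± 0.12 (SE), with an adjusted p of 0.195 by limma). Atf3, a stress-induced transcription factor, had a change of 0.63 ± 0.17. Myc (-0.13), Jun (-0.085) and Fosl1 (0.017) had changes near 0.

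Genes of the cell cycle were slightly lower. All 21 tested proliferation genes lay below 0, with a median of -0.18, and 7 were lower at an unadjusted p under 0.05, against 13.7% of all genes. The list mean was 5.30, 5.30, 5.31, 5.35 and 5.41 in the anti-PD-1 tumours and 5.31, 5.34, 5.09, 5.15 and 4.91 in the combination tumours. Combination replicates 1 and 2 lay within the anti-PD-1 range, 3 and 4 below it, and 5 was lowest. Mcm5, a subunit of the replicative helicase, measured 39.5, 38.4, 41.1, 40.9 and 42.5 FPKM with anti-PD-1 and 36.8, 38.2, 34.9, 32.3 and 30.6 FPKM with the combination, without overlap (-0.23 ± 0.066 (SE), with an adjusted p of 0.212 by limma). Mki67 had a change of -0.17 ± 0.11 and Top2a, topoisomerase II, one of -0.22 ± 0.11, neither with an unadjusted p under 0.05. Without replicates 3 and 5, 2 of 21 were lower (7.39% of all genes were) and the median was -0.081, against -0.03 for all genes in that fit.

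Chaperones of the cytosol and the endoplasmic reticulum had small changes, most of them below 0. Of 13 tested heat shock genes 11 lay below 0 and 4 were lower at an unadjusted p under 0.05, against 13.7% of all genes. Of 14 tested unfolded protein response genes 11 lay below 0. At the same threshold 4 were lower and 1, Dnajb9, was higher, against 13.7% and 6.37% of all genes. Leaving out combination replicates 3 and 5, 4 and 3 genes of these lists were lower, against 7.39% of all genes. Pdia4, a disulfide isomerase of the endoplasmic reticulum, measured 62.95 to 70.8 FPKM with anti-PD-1 and 51.5 to 58.2 FPKM with the combination, without overlap (-0.23 ± 0.055 (SE), with an adjusted p of 0.212 by limma). Hsp90b1 had a change of -0.20 ± 0.07 and Dnaja1 one of -0.25 ± 0.087. Of 18 nuclear genes of oxidative phosphorylation 3 were lower, against 13.7% of all genes, and 3 without combination replicates 3 and 5, against 7.39%. They were Ndufa4 (-0.45 ± 0.13), Ndufv1 (-0.20 ± 0.056) and Atp5a1 (-0.18).

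Hypoxia and glycolysis genes depended on which tumours were kept. With all libraries 3 of 18 were higher at an unadjusted p under 0.05, against 6.37% of all genes, and the median was 0.007. Without combination replicate 5 the number was 6, against 3.84% of all genes. Without replicates 3 and 5 it was 10 of 18, against 2.47% of all genes, with a median of 0.29. Adm, adrenomedullin, a hypoxia-induced vasodilator, measured 5.41, 3.77, 7.24, 5.196 and 4.105 FPKM with anti-PD-1 and 8.61, 9.805, 5.14, 12.05 and 5.38 FPKM with the combination. Replicates 1, 2 and 4 were above all anti-PD-1 tumours and 3 and 5 were within their range (0.55 ± 0.22 (SE), with an adjusted p of 0.228 by limma, and 0.88 without replicates 3 and 5). The glycolytic enzyme gene Pgk1 was also high in replicates 1, 2 and 4 and low in 3 and 5, 676, 728, 475, 795 and 384 FPKM with the combination and 511 to 669.6 FPKM with anti-PD-1, and its change went from -0.019 to 0.29. Pfkfb3, the glycolytic regulator, differed from them in being highest in replicates 3 and 5 (0.62 ± 0.17).

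Collagen genes were not alike in direction, with 10 of 18 tested above 0 and 8 below. At an unadjusted p under 0.05, 6 were lower (13.7% of all genes) and none was higher, and without combination replicates 3 and 5, 3 were lower (7.39% of all genes). Col6a1, a chain of the beaded-filament collagen VI, measured 195, 225, 215, 154 and 124 FPKM with anti-PD-1 and 100.3, 155, 94.3, 129 and 108 FPKM with the combination. Combination replicates 2 and 4 lay with the 2 lowest anti-PD-1 tumours and the other 3 under them (-0.63 ± 0.18 (SE), with an adjusted p of 0.212 by limma). Col5a1 had a change of -0.49 ± 0.12, while the collagen genes Col1a1 and Col3a1, of the main fibrils of connective tissue, had changes of 0.52 ± 0.38 and -0.23 ± 0.17, with Col1a1 at 157, 177, 302, 158 and 536 FPKM in the combination tumours. Tgfb3, a TGF-β ligand, had one of the larger negative changes. It measured 31.7, 28.2, 53.4, 30.1 and 23.8 FPKM with anti-PD-1 and 15.7, 22.9, 13.1, 16.8 and 16.3 FPKM with the combination, without overlap, below a vehicle range of 54.9 to 124 FPKM (-0.91 ± 0.20 (SE), with an adjusted p of 0.195 by limma, and -0.79 without combination replicates 3 and 5). Tgfb1 had a change of 0.16, and 2 of 13 tested TGF-β genes, Tgfb3 and the latency protein gene Ltbp3, were lower, a share near the 13.7% of all genes. The number was 1 without combination replicates 3 and 5, against 7.39% of all genes.

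Mesenchymal transcription factors were lower in part. Snai1 measured 25.9, 30.3, 29.7, 30.1 and 23.9 FPKM with anti-PD-1 and 18.01, 24.4, 19.8, 21.95 and 17.5 FPKM with the combination, where only replicate 2 reached the lowest anti-PD-1 tumour (-0.45 ± 0.10 (SE), with an adjusted p of 0.206 by limma). Zeb1 had a change of -0.37 ± 0.12 and the matrix glycoprotein gene Fn1 one of -0.48 ± 0.19, and 4 of 12 tested genes were lower at an unadjusted p under 0.05, against 13.7% of all genes. When combination replicates 3 and 5 were left out, 1 of the 12 was lower, against 7.39% of all genes. Mmp9, a gelatinase, measured 16.2, 16.8, 32.98, 21.7 and 11.5 FPKM with anti-PD-1 and 11.7, 10.4, 9.63, 9.96 and 10.4 FPKM with the combination, a narrow range near or under the lowest anti-PD-1 tumour (-0.79 ± 0.21 (SE), with an adjusted p of 0.212 by limma). In the plasminogen system the groups did not overlap for the activator gene Plat, which was lower (-0.39 ± 0.11), or for the urokinase receptor gene Plaur, which was higher (0.35 ± 0.12).

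Markers of other tissues varied between tumours of both groups. Skeletal muscle genes had list means of 1.56, 3.11, 2.19, 2.96 and 2.91 in the anti-PD-1 tumours and 3.30, 2.92, 2.77, 0.15 and 2.82 in the combination tumours, and summed FPKM of 46.3 to 232 and 1.99 to 257. Adipocyte genes summed to 86.02 to 437 FPKM and 56.8 to 429.8 FPKM. No tested gene of either list had an unadjusted p under 0.05, where 6.37% of all genes were higher and 13.7% lower. Epithelial genes were low for a tumour of a colon line: Cdx2, the intestinal identity factor, was listed at 0 in all 10 libraries, Epcam was at 0.0222 to 2.46 FPKM with anti-PD-1 and 0.344 to 3.82 FPKM with the combination, and Krt8 at 0.0684 to 5.51 and 0.312 to 6.36 FPKM. Epithelial markers of the labelled colon adenocarcinoma cells were thus at or near 0 in several libraries. Of 14 neutrophil genes 6 were tested, all above 0 with a median of 0.63. At an unadjusted p under 0.05, 2 were higher, against 6.37% of all genes. Without combination replicates 3 and 5 the number was 0, against 2.47% of all genes. The list summed to 6.37 to 40.9 FPKM with anti-PD-1 and 17.7 to 63.6 FPKM with the combination, and its marker Ly6g was listed at 0 in all 10 libraries. Endothelial genes were higher in 3 of 14 with all libraries (6.37% of all genes). The number was 0 when combination replicates 3 and 5 were left out (2.47% of all genes). With the adipocyte score as a covariate, 561 genes were higher and 1217 lower at an unadjusted p under 0.05. With the skeletal muscle score they were 681 and 1580, against 713 and 1533 without a covariate. No gene passed an adjusted limma p of 0.05 in either fit. The part of the other tissues in the differences above was not tested.

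**Figure D5:**
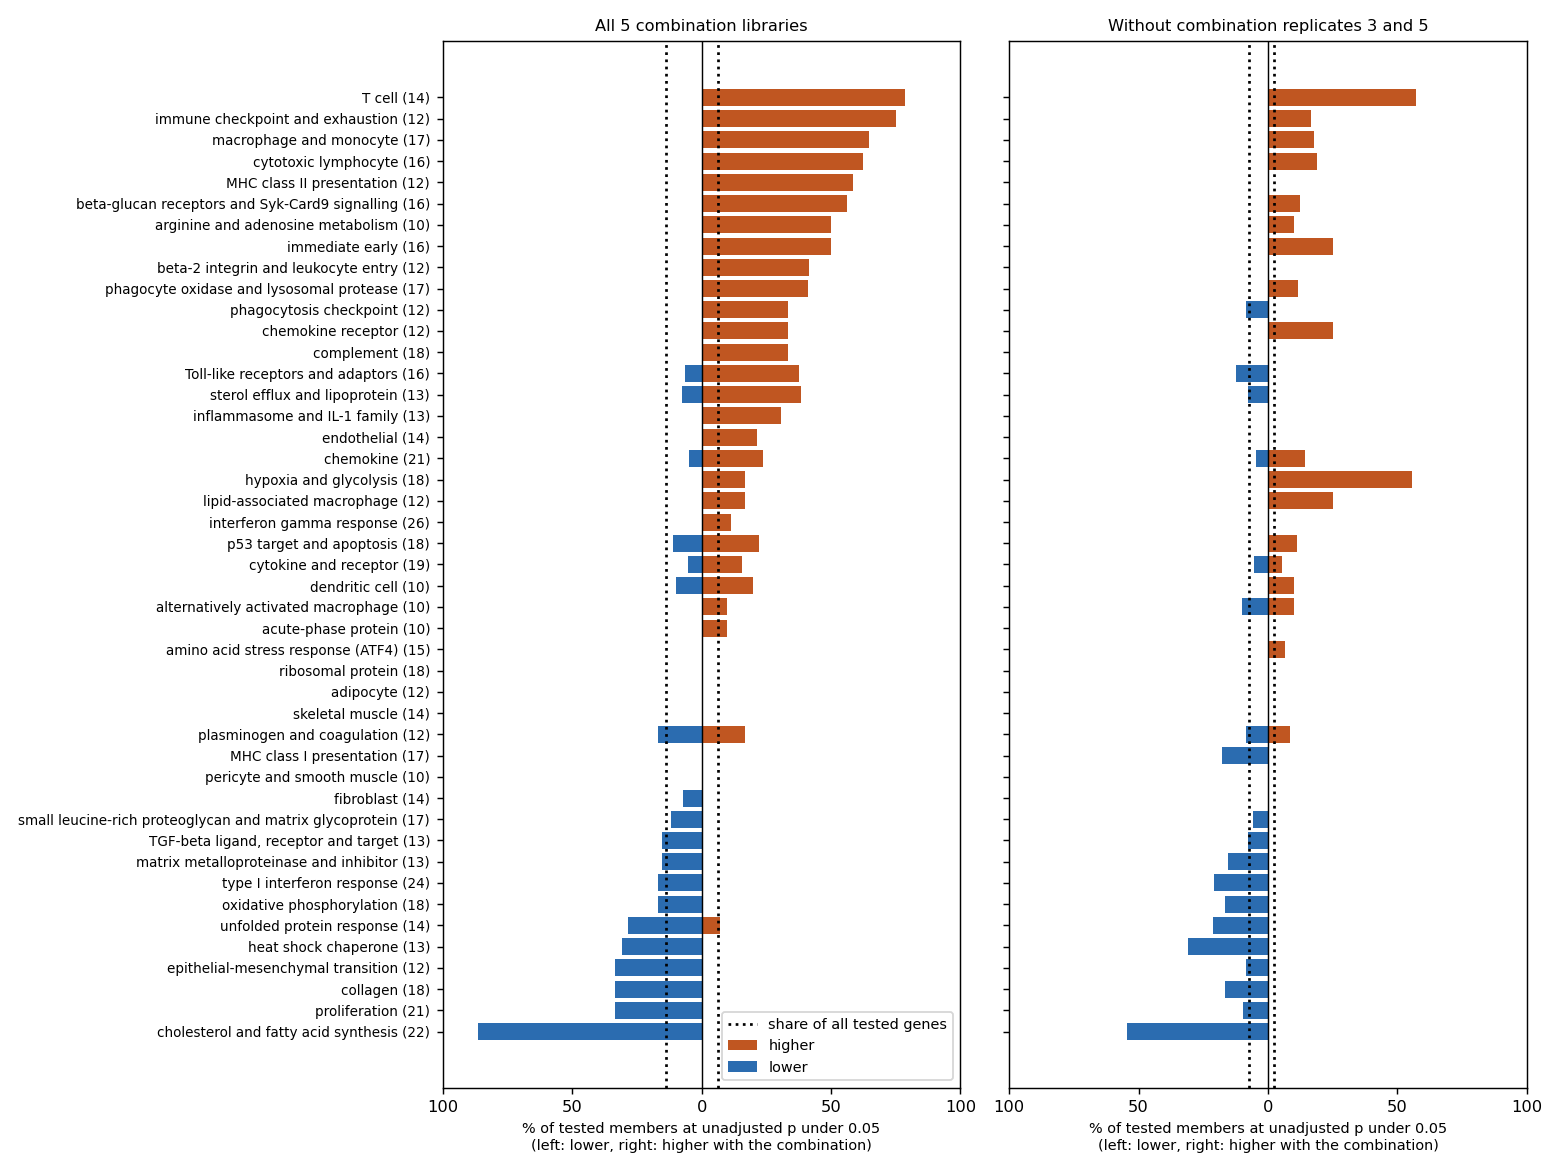
Share of tested members of each list that were higher (right) or lower (left) with the combination at an unadjusted limma p under 0.05, with the number tested in parentheses; dotted lines are the shares over all 11186 genes, 6.37% and 13.7% with all libraries (left panel) and 2.47% and 7.39% without combination replicates 3 and 5 (right panel). The sterol synthesis, T cell and hypoxia lists lie far from the dotted lines in the right panel.

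The genes with the smallest p values were mostly outside these lists. Among genes of at least 5 FPKM, the 10 with the smallest p in the higher direction had changes from 0.35 to 1.14 and adjusted p values from 0.195 to 0.212. Beside Lgals3, Klrd1, Il7r, Ier3 and Klrb1b they were Rgs1, Nr1d1, Stk17b, Znrf2 and Basp1. Rgs1, a brake on chemokine receptor signalling in lymphocytes, measured 7.93, 6.91, 5.48, 6.43 and 7.51 FPKM with anti-PD-1 and 9.56, 9.82, 13.1, 11.96 and 14.7 FPKM with the combination, without overlap (0.70 ± 0.12 (SE), with an adjusted p of 0.195 by limma). Nr1d1, the haem-binding clock repressor REV-ERBα, measured 10.99, 10.3, 10.8, 8.52 and 9.89 FPKM with anti-PD-1 and 12.5, 14.8, 14.4, 16.1 and 12.3 FPKM with the combination. Here replicates 3 and 5 did not stand out, and the change was 0.43 ± 0.088 with all libraries and 0.48 without them. Stk17b, a kinase of lymphocytes, did not overlap either (0.49 ± 0.11).

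The 10 with the smallest p in the lower direction were small and even differences, from -0.54 to -0.24. All were without overlap between groups, as 3.85% of all genes were in this direction. Picking the smallest p favours genes without overlap. Alg2, a mannosyltransferase of N-glycan assembly, measured 10.7, 11.7, 11.2, 11.8 and 10.4 FPKM with anti-PD-1 and 9.17, 8.86, 8.44, 8.11 and 8.76 FPKM with the combination, under a vehicle range of 12.2 to 15.1 FPKM (-0.33 ± 0.054 (SE), with an adjusted p of 0.195 by limma). Hhipl1 measured 5.74, 6.53, 7.29, 6.03 and 6.196 FPKM with anti-PD-1 and 3.98, 4.91, 3.22, 4.42 and 3.89 FPKM with the combination (-0.54 ± 0.093 (SE), with an adjusted p of 0.195 by limma). The others included Taf6l, a subunit of histone acetyltransferase complexes (-0.29 ± 0.052), and Lsm10, of the U7 particle that trims histone mRNA (-0.27 ± 0.05). They also included the endosomal sorting gene Vps37c (-0.28 ± 0.052), the kinase gene Pak4 (-0.30 ± 0.056) and the paraspeckle gene Pspc1 (-0.25 ± 0.049). The rest were Parp3, an ADP-ribosyltransferase (-0.26 ± 0.052), the splicing factor gene Rbm4 (-0.40 ± 0.078) and Arl6ip5 (-0.24 ± 0.047). With combination replicates 3 and 5 left out their changes lay between -0.47 and -0.22.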

How the data were processed

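The series holds 15 tumour RNA samples, 5 per group, from strand-specific mRNA libraries, and whether each came from a separate mouse is not given in the sources used here. The submitters' processing notes name build GRCm39 and the tools Trimmomatic, HISAT2, Cufflinks, HTSeq and DESeq, giving neither role nor version. The authors deposited 1 value per gene and library, which was taken as FPKM from the range, the sums and the naming of Cufflinks, since no unit stands in the table's header. FPKM are not counts, so no count model was used, and depth is unknown.

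Of 21878 entries, 27 whose symbols a spreadsheet had turned into dates were left out. Genes of at least 1 FPKM in at least 5 of the 10 compared libraries were tested by limma 3.58.1 under R 4.3.3, on log2 values after adding 1 FPKM (trended variances, Benjamini-Hochberg adjustment over 11186 genes), a fit checked on simulated data. Nothing in the labels says that replicate numbers mark separate animals, so p-values measure the spread between these samples. The smallest p that an exact two-sided permutation test of 5 against 5 allows is 0.00794.

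Gene lists (58, with 893 entries, 15 matched by synonym and 18 not matched) were chosen with earlier results of these data known. Named genes were the 10 of smallest p in each direction with a group mean of at least 5 FPKM, the 2 of smallest p in each list and a fixed set of 10. Other genes were named after their values were seen. Some genes that count in the lists are not reported here by name. Alternatives were pseudocounts of 0.1 and 0.5, no filter or a stricter one, other scalings, variance models and libraries, a replicate block, and adipocyte or muscle scores as covariates.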

Additional observations from a re-analysis of the deposited data

Results flagged for a closer look

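For the genes named here and in the report, each group of 5 libraries was searched for a highest or lowest library whose gap to its nearest neighbour was more than 0.71 of the range of the group. This picked 29 of 412 gene and group pairs. For independent values of a normal distribution chance gives about 1 in 20. These FPKM were not transformed and many of the genes vary together, so that rate is not the chance rate of this set.

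Combination replicate 5 held 10 of the 29, each as the highest of its group: Acta2 (49.3 FPKM), Cd3g (50.9 FPKM), Cd8a (31.99 FPKM), Cd8b1 (34.5 FPKM), Clec4n (48.96 FPKM), Cma1 (25.5 FPKM), Cxcr6 (45.04 FPKM), Gzmk (21.2 FPKM), Klrc1 (23.1 FPKM) and Tagln (71.1 FPKM). These are genes of T and NK cells, a dectin, a mast cell protease and contractile proteins of smooth muscle. Combination replicate 3 was highest for Arg1 (207 FPKM) and Trem1 (1.84 FPKM). Combination replicate 2 was lowest for Marco (0.657 FPKM) and Xcl1 (1.54 FPKM), and combination replicate 4 was lowest for Rbm4 (5.28 FPKM).

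In the anti-PD-1 group, replicate 5 stood apart for Cxcl16 (58.4 FPKM), Havcr2 (14.4 FPKM), Ndufa4 (249 FPKM), Stk17b (18.9 FPKM) and Top2a (117 FPKM), lowest for Ndufa4 and highest for the others. Replicate 3 was lowest for Lilrb4a (17.3 FPKM) and Pla2g7 (23.8 FPKM) and highest for Nupr1 (128.6 FPKM) and Tgfb3 (53.4 FPKM). Replicate 4 was highest for Arg1 (79.96 FPKM) and Ccl3 (19.8 FPKM), replicate 2 for Nr1h3 (8.16 FPKM) and Pdia4 (70.8 FPKM) and replicate 1 for Hist1h1c (17.4 FPKM).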

How the results depend on the processing

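No gene passed an adjusted limma p of 0.05 under any alternative run on the 10 libraries, including the replicate block and each fit that left out a library. The fit over all 15 libraries called 7 genes, all lower: Arl6ip5, Hhipl1, Nav1, Pak4, Plekhh1, Unc5a and Vps37c. On simulated data of the same comparison 19.1% of the calls of that fit were wrong, against 5.73% for the fit over 10 libraries. The latter called 51 of 67 genes changed 1.5-fold and 64 of 67 changed 2-fold, in a simulated set that also held 66 genes changed 4-fold. These counts hold for that set of changes. They do not give the share of changes between these tumours that the fit would call. The rule of an unadjusted p under 0.05 with a change of at least 2-fold took 17 genes, 15 of them higher. The 713 higher and 1533 lower genes at an unadjusted p became 436 higher with a filter of mean FPKM of at least 5, 763 lower with median-ratio scaling, 276 higher and 827 lower without combination replicates 3 and 5, and 362 to 1395 higher and 1087 to 2082 lower when a single library was left out. With the replicate number as a block, 0 genes were called and 573 were higher and 1039 lower at an unadjusted p. Same-numbered libraries deviated with correlations of -0.393 to -0.118 and no library correlated best with its own number. No pairing by number showed. These correlations cannot exclude one, because the large deviations of combination replicates 3 and 5 weigh most in them. Gene changes that turned sign without combination replicates 3 and 5 were Ccr2 (-0.28), Cd4 (-0.074), Cx3cr1 (-0.32), Ldha (0.17), Pgk1 (0.29), Pmp22 (0.041), Rpsa (0.0074) and Scd1 (0.091). With median-ratio scaling Pgk1 (0.036) and Scd1 (0.025) turned, and without combination replicate 4 the muscle genes Acta1 (0.33) and Mb (0.20) did. With single libraries left out, changes spanned -1.31 to 0.33 for Acta1, -0.091 to 0.79 for Adipoq, -0.054 to 0.33 for Ccr2, -0.19 to 0.16 for Cx3cr1, -0.13 to 0.079 for Ldha, -0.93 to 0.20 for Mb, -0.13 to 0.14 for Pgk1 and -0.21 to 0.18 for Scd1. All of these were genes without an unadjusted p under 0.05, and the cause was not tested. Depth is unknown from the deposited values, so no counting error is given.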
